A study of Mus musculus with 31 samples.

Results

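Glycogen is a branched polymer of glucose that cells lay down as a store and break down again when glucose is short. The genes described here are 9 that make, remodel, break down or tether it: Gyg, Ugp2, Gys1, Gbe1, Pygb, Pygl, Ppp1r3b, Ppp1r3c and Stbd1. They were chosen by name, and each was found once in each of 3 count tables, which list 55487, 56980 and 56941 genes. All 31 samples are total RNA of murine pancreatic cancer cells. The labels name the pancreatic adenocarcinoma line Panc02 in the first 2 tables but give each rescue sample a different running line name, where the study's methods name Panc02. Levels are given as CPM, counts scaled to a library of fixed size after TMM normalization. The first table holds 9 spheroid samples of WT cells kept in control medium (Ctrl), in medium conditioned by unstimulated bone-marrow-derived macrophages (M0-CM) or in medium conditioned by macrophages given IFNγ and LPS (M1-CM), with 3 samples each. The second holds WT and Cxcl5-/- cells in 2D or 3D culture, again 3 samples each. The third, the rescue experiment, holds 3D-cultured WT (n = 2), Cxcl5-/- (n = 2), Hif1aOE Cxcl5-/- (n = 3) and MycOE Cxcl5-/- (n = 3) cells. The Cxcl5-/- cells carry a lentiviral Cas9 and guide with puromycin selection, and both overexpression lines were made from them with a retroviral vector, Hif1a as a stabilized mutant. Whether each line is a clone or a pool, and whether the WT cells carry a control vector, is not stated in the sources used here, so line and genotype cannot be told apart.

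In background terms, Ugp2 makes UDP-glucose, the glucose donor, and Gyg (glycogenin) primes a new chain on itself. Gys1, the glycogen synthase of muscle and most other tissues, lengthens the chain, and Gbe1, the branching enzyme, introduces the branches. Pygb and Pygl, the phosphorylases first described in brain and liver, release glucose 1-phosphate from the chain ends. Ppp1r3b and Ppp1r3c are subunits that bring protein phosphatase 1 to glycogen, where it activates the synthase. Stbd1 binds glycogen and tethers it to membranes. Several of these genes are known to respond to low oxygen in cultured cells. On GRCm38 with GENCODE M21, whole genes lie as follows. The makers are Gyg (chr3:20122084-20155317, minus strand), Ugp2 (chr11:21321138-21371201, minus), Gys1 (chr7:45434844-45456619, plus) and Gbe1 (chr16:70313949-70569716, plus). The phosphorylases are Pygb (chr2:150786735-150831758, plus) and Pygl (chr12:70190811-70231488, minus). The phosphatase subunits are Ppp1r3b (chr8:35375739-35388139, plus) and Ppp1r3c (chr19:36731731-36736653, minus), and the tether Stbd1 lies at chr5:92603041-92606579 on the plus strand.

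For 8 of the 9 genes RefSeq promoter windows on GRCm38.p6 were at hand. Ppp1r3b had no entry. The 250 bases before the start were searched on both strands for ACGTG and GCGTG, the core letters bound by hypoxia-inducible factors. The E-box CACGTG, which Myc and its partners bind, was also searched and contains ACGTG. Of 32851 promoter windows of this length, 38.6% held at least 1 match to either core and 6.02% held CACGTG. The genes shown are the 2 most responsive enzymes, Gys1 and Gbe1, then Ugp2, which supplies the substrate, Stbd1, the tether of glycogen to membranes, and Pygb, the phosphorylase with the most reads. Each is printed 5′ to 3′ on the strand of its gene, with exons of protein-coding genes left off and core matches in capitals. They lie at chr7:45434710-45434838 on the plus strand (129 bases), chr16:70313699-70313948 on the plus strand (250 bases), chr11:21371268-21371517 on the minus strand (250 bases), chr5:92602801-92603040 on the plus strand (240 bases) and chr2:150786546-150786734 on the plus strand (189 bases).
Gys1: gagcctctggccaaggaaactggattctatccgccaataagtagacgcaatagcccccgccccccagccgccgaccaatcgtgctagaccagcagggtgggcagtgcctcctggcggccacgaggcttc
Gbe1: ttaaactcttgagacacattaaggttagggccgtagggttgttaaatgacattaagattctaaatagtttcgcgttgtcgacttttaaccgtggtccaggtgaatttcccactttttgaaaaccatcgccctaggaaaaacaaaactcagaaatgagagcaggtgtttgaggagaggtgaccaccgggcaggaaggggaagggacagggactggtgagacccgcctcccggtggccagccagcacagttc
Ugp2: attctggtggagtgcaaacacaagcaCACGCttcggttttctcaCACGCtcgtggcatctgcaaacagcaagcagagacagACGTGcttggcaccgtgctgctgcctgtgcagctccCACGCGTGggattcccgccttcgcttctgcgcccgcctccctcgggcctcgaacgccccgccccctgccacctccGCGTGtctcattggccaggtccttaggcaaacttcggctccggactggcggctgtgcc
Stbd1: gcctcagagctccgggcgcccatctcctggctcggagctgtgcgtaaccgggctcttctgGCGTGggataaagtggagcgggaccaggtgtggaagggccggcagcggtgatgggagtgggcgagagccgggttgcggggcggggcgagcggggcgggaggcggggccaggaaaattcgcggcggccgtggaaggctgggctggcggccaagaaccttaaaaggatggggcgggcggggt
Pygb: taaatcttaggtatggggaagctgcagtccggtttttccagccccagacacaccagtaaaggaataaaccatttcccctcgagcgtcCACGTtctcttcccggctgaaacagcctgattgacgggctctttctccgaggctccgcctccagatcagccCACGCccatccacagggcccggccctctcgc
Neither core occurred in the 250 bases before Gys1 or before Gbe1. The window of Ugp2 shown above held 6 matches, 1 to ACGTG and 5 to GCGTG, and 5 or more matches occurred in 1.01% of all windows. A second Ugp2 window, at chr11:21370630-21370879, held none. Pygb held 1 match to each core, Stbd1 and Gyg held 1 GCGTG each, and Pygl held 1 match to each core. Ppp1r3c held 3 matches to ACGTG and 1 to GCGTG, among them the only CACGTG of the 8 genes, and it had counts in few samples. A match is a run of letters, and its absence says only that those letters are not in this window.

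The levels of the 9 genes spanned a wide range. Divided by the length of the joined exons in GENCODE M21, Gbe1 was the highest of the 9 in 3D WT spheroids at 73.5 ± 5.51 CPM per kb (SD, n = 3), followed by Gys1 at 46.8 ± 5.52 and Ugp2 at 31.4 ± 2.70. Pygb at 14.1 ± 1.25 and Gyg at 12.7 ± 0.727 came next and were next to each other in the order. Ppp1r3b at 5.37 ± 0.442 and Stbd1 at 3.50 ± 0.215 were lower still. In 2D WT cells the order was another. Ugp2 led at 24.1 ± 1.23 CPM per kb, Pygb at 16.9 ± 0.657 and Gbe1 at 16.9 ± 0.498 did not differ beyond their spread, and nor did Gyg at 9.53 ± 0.503 and Gys1 at 9.0 ± 0.440. Gys1 thus stood below Pygb in 2D WT and above it in 3D WT.

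Pygl and Ppp1r3c were at or near 0 throughout. Pygl, the liver phosphorylase, had 0 counts in all 6 samples in 2D and in the 3 libraries labelled 3D Cxcl5-/-, against 8, 9 and 8 counts in 3D WT. With 3 counts per library as the limit of a count of 0, 3D WT was at least 2.96-fold higher than 2D WT on the mean CPM, though at 0.171 ± 0.0342 CPM. Ppp1r3c had counts in 1 of the 12 samples of 2D and 3D culture, 16 in the third 3D WT sample, and 0 in all 9 samples of the media. In the rescue experiment it had 29 and 21 counts in WT and 0 in both Cxcl5-/- samples, at least 8.81-fold higher in WT. The 2 WT libraries of that table stood apart, with counts in 43048 and 43037 genes against 26948 and 26886 in Cxcl5-/- and 27997 to 31338 in the overexpression lines, at the lowest total counts. Some markers of other cell types shared the pattern and others did not. Kdr of endothelial cells had 29 and 31 counts in WT and 0 and 0 in Cxcl5-/-. Adgre1 of macrophages had 21 and 33 in WT and 0 and 0 in Cxcl5-/-. In Cxcl5-/-, 3 of 3 endothelial and 2 of 5 leukocyte markers tested were called lower. There 1 leukocyte marker and all 3 fibroblast markers were called higher. The summed leukocyte CPM was 14.2 to 14.4 in WT and 14.8 to 15.7 in Cxcl5-/-. Low counts seen in these WT libraries alone therefore cannot be told apart from what sets the libraries apart. In 2D and 3D culture the 3D WT libraries had counts in 29547 to 31449 genes, the libraries labelled 3D Cxcl5-/- in 27225 to 27639 and those in 2D in 23370 to 24575, and the part of this in the low counts of Pygl and in the counts of Stbd1 was not tested. Neither Pygl nor Ppp1r3c passed the filter on low counts in the first 2 tables, so 7 of the 9 were tested there and all 9 in the rescue table. There Pygl had 18 and 21 counts in WT, 5 and 0 in Cxcl5-/-, 0, 17 and 8 with Hif1a and 22, 4 and 21 with Myc, and it was called in no comparison, nor was Ppp1r3c.

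Total counts per sample ran from 41542533 to 78498230. Replicate 1 of the libraries labelled 3D Cxcl5-/- stood apart from the other 2, with a chi-square per degree of freedom of 191 and 142 against 26.8 between those. The 3 Ctrl samples of the media differed from each other by 113 to 332 on the same measure. The 2 WT samples of the rescue experiment differed by 9.37 and its 2 Cxcl5-/- samples by 12.3, the lowest of all replicate pairs. Cxcl5 mRNA does not check the knockout well, since edited transcripts can still be counted. Its level was 47.3 ± 1.78 CPM in 2D WT, 34.3 ± 2.70 in 2D Cxcl5-/-, and 27.0 ± 2.17 in 3D WT (SD, n = 3). It went against the label in 3D, where the samples labelled Cxcl5-/- had 50.6 ± 13.1 CPM, more than WT (log2 fold change 0.91 ± 0.14, adjusted p = 0.000173, edgeR). Hif1a and Myc were lower in the same libraries than in 3D WT, Hif1a at 159.6 ± 18.0 against 369 ± 36.0 CPM (log2 fold change -1.21 ± 0.10, adjusted p = 4.13e-07) and Myc at 10.4 ± 1.15 against 35.0 ± 1.67 (log2 fold change -1.75 ± 0.12, adjusted p = 8.94e-08). The study checked its knockout at the protein level, by immunoblot. In the rescue experiment Cxcl5 was lower in Cxcl5-/- than in WT (log2 fold change -0.78 ± 0.14, adjusted p = 0.00107). Myc went from 21.1 ± 1.59 CPM in Cxcl5-/- to 490.2 ± 81.6 in MycOE Cxcl5-/-. Hif1a went from 139 ± 7.40 in Cxcl5-/- to 266 ± 27.2 in Hif1aOE Cxcl5-/-, and it was 258 ± 15.5 in MycOE Cxcl5-/-. Against WT of that experiment, Hif1a was called lower in Cxcl5-/- and was not called in Hif1aOE Cxcl5-/-. The Hif1aOE line was thus not called above WT in Hif1a mRNA. Of 6 epithelial markers, Epcam and Cdh1 were at 0 in most groups although the cells are labelled pancreatic cancer cells. The summed CPM of the 6, of which 4 are keratins, ran from 839 to 1084 in 3D WT. It ran from 190.4 to 222 in the libraries labelled 3D Cxcl5-/-. Krt8 (569 against 147 CPM) and Krt18 (347 against 58.4) made up most of these sums. Of the 4 markers tested, 3 were called lower with the knockout label. Krt7 was called higher, at 3.15 ± 0.0841 against 0.72 ± 0.26 CPM in 3D WT. The summed CPM of 3 fibroblast markers (Pdgfra, Dcn and Lum) ran from 63.4 to 67.4 in 3D WT and from 201 to 229 in the libraries labelled 3D Cxcl5-/-, where Pdgfra was higher (3.33 ± 0.10) and Dcn and Lum were lower (-3.74 ± 0.28 and -1.27 ± 0.39). In the rescue experiment these 3 summed to 17.2 to 20.2 in WT, 258 to 259 in Cxcl5-/-, 23.8 to 42.6 in Hif1aOE Cxcl5-/- and 146 to 167 in MycOE Cxcl5-/-. The 6 epithelial markers there summed to 823 to 865 in WT, 258 to 272 in Cxcl5-/-, 687 to 819.5 in Hif1aOE Cxcl5-/- and 244 to 287 in MycOE Cxcl5-/-, so the overexpression lines lay far apart in this set. Their part in the results below was not tested, and in bulk RNA fewer cells of a kind and less RNA per cell cannot be told apart.

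The first question was what 3D culture did to the glycogen genes of WT cells. Of the 7 tested, 6 were higher and 1 was lower in 3D (edgeR's quasi-likelihood test, adjusted p under 0.05), where 22.2% of all 21367 genes tested were higher, 22.0% lower and 44.3% called in all. The median log2 fold change of the 7 was 2.12, against 0.00199 over all genes. The rise was large for the synthase, the branching enzyme, the phosphatase subunit and the tether, and small for the enzymes that supply the donor and the primer.

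Gys1 was at 42.8, 41.2 and 45.4 CPM in the 3 samples of 2D WT and at 249, 197 and 227 in those of 3D WT. Every 3D sample lay far above every 2D sample, a 5.20-fold rise (log2 fold change 2.38 ± 0.12, adjusted p = 5.06e-09). Gbe1 went from 87.3, 91.7 and 92.0 CPM to 399.9, 361 and 419, and the groups did not overlap (log2 fold change 2.12 ± 0.09, adjusted p = 1.41e-09). Ppp1r3b, which recruits the phosphatase that activates synthase, had 4.93, 3.63 and 4.17 CPM in 2D and 34.7, 35.2 and 30.2 in 3D. Its rise was 7.88-fold (log2 fold change 2.98 ± 0.14, adjusted p = 1.79e-09). Stbd1 had 50, 52 and 26 counts in 2D WT and 375, 352 and 424 in 3D WT, so its fold rested on few reads on the 2D side (log2 fold change 3.50 ± 0.63, adjusted p = 0.000458).

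Ugp2 and Gyg rose by less. Ugp2 had 73.4, 78.1 and 70.7 CPM in 2D WT and 91.3, 91.8 and 106 in 3D WT (log2 fold change 0.38 ± 0.09, adjusted p = 0.00332). Gyg had 21.0, 22.9 and 23.1 CPM and 29.1, 28.4 and 31.6 (log2 fold change 0.41 ± 0.09, adjusted p = 0.00192). For neither gene did the groups overlap, but with library totals in place of TMM both calls were lost (adjusted p = 0.135 for Ugp2 and 0.168 for Gyg). Pygb alone was lower in 3D, at 83.0, 77.8 and 83.4 CPM in 2D WT and 73.2, 61.4 and 69.4 in 3D WT (log2 fold change -0.26 ± 0.08, adjusted p = 0.0162). That call was lost with DESeq2 size factors (adjusted p = 0.0754), without the low-count filter, with the DESeq2 test, with only the 2 groups in the fit, and without 2D WT replicate 1 or 3 or 3D WT replicate 2 or 3, and under these alternatives its log2 fold change lay between -0.26 and -0.17.

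**Figure D1:**
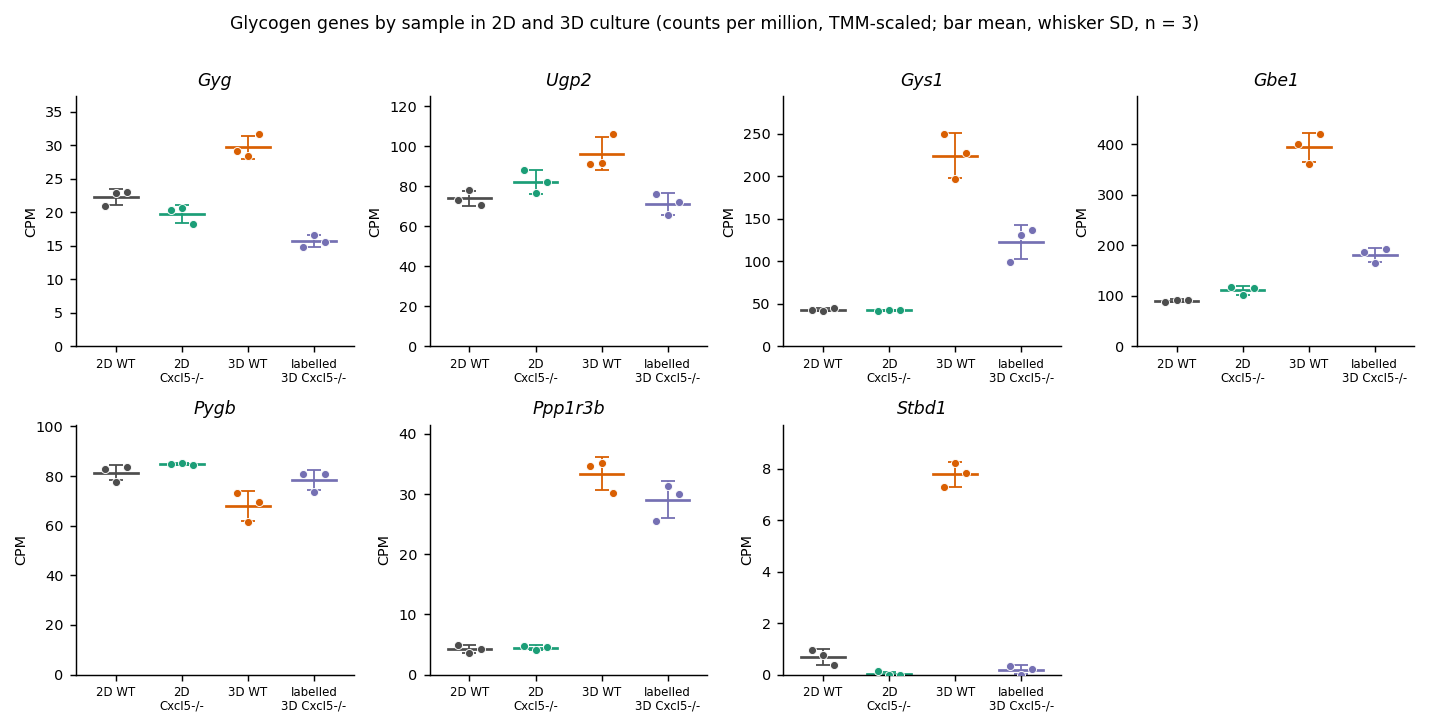
Level of 7 glycogen genes in each sample of 2D and 3D culture; the y axes are CPM from 0, points are samples, bars are group means and whiskers are SD (n = 3). Gys1, Gbe1, Ppp1r3b and Stbd1 all rose from 2D to 3D in WT, and all but Ppp1r3b of these 4 are lower in the libraries labelled 3D Cxcl5-/-.

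The second question was how the cells labelled Cxcl5-/- compared. Against 3D WT, the libraries labelled 3D Cxcl5-/- had 5 of the 7 genes lower and 1 higher, where 25.3% of all genes were lower, 19.7% higher and 45.0% called in all. The median of the 7 was a log2 fold change of -0.87, against -0.04 over all genes. Gys1 was at 99.6, 131 and 137 CPM, between 2D WT and 3D WT in each sample, or 1.83-fold below the latter (log2 fold change -0.87 ± 0.12, adjusted p = 3.98e-05, edgeR). Gbe1 was at 186, 165 and 192 CPM, 2.18-fold lower than 3D WT (log2 fold change -1.12 ± 0.09, adjusted p = 4.61e-07). The mRNAs of both enzymes of chain building lay above their 2D WT level in every one of these libraries.

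Gyg, the primer, fell further than its rise in 3D. In these libraries it had 14.9, 16.7 and 15.6 CPM, below every other sample of the 12 (log2 fold change -0.92 ± 0.09, adjusted p = 2.72e-06). Ugp2 was at 75.9, 65.4 and 72.0 CPM (log2 fold change -0.44 ± 0.09, adjusted p = 0.00131), and this call was lost with library totals (adjusted p = 0.636). Stbd1 had 22, 0 and 15 counts against 375, 352 and 424 in 3D WT, or 0.192 ± 0.176 CPM against 7.77 ± 0.478, the widest gap of the 7 genes (log2 fold change -5.30 ± 0.72, adjusted p = 4.84e-05). Pygb was the gene that was higher, at 81.0, 73.7 and 80.7 CPM (log2 fold change 0.21 ± 0.08, adjusted p = 0.0478), a call that was lost when any 1 of 8 of the 12 libraries was left out and with only the 2 groups in the fit. Without replicate 1 of the libraries labelled 3D Cxcl5-/-, which stood apart, 5 of the 7 genes were called, the 5 lower ones.

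Ppp1r3b did not follow the enzymes. Its level was 25.6, 31.4 and 30.1 CPM with the knockout label and 34.7, 35.2 and 30.2 in 3D WT, groups that overlapped (log2 fold change -0.20 ± 0.12, adjusted p = 0.208). The sign of that difference turned with library totals (0.19, adjusted p = 0.324).

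In 2D the genotypes were close. Of the 7 genes, 1 was called lower, Stbd1, where 3.17% of all genes were lower, 3.86% higher and 7.03% called in all. Stbd1 had 8, 0 and 0 counts in 2D Cxcl5-/- and 50, 52 and 26 in 2D WT (log2 fold change -4.00 ± 0.91, adjusted p = 0.015). The call was lost without 2D WT replicate 1 (adjusted p = 0.0524), 2D Cxcl5-/- replicate 2 (0.0654) or replicate 3 (0.0621), and without 2D Cxcl5-/- replicate 1 the log2 fold change went to -8.34. Gbe1 had 117, 101 and 115 CPM in 2D Cxcl5-/-, above all 3 samples of 2D WT but short of the threshold (log2 fold change 0.29 ± 0.09, adjusted p = 0.0754). It was called with at least 10 counts in every sample (adjusted p = 0.0476), with the replicate block (0.0488), with DESeq2 (0.0117) and with only the 2 groups fitted (0.0222). Gys1, at 41.9, 42.5 and 42.7 CPM, lay within the range of 2D WT. The other 4 genes had adjusted p from 0.321 to 0.859.

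The interaction term gives the difference between the genotype effect in 3D and that in 2D. It was negative and called for 4 of the 7 genes, where 16.1% of all genes were called lower and 27.2% in all (11.1% higher). It was -1.41 ± 0.13 for Gbe1 (adjusted p = 6.32e-06), -0.85 ± 0.16 for Gys1 (adjusted p = 0.00198), -0.74 ± 0.13 for Gyg (adjusted p = 0.000868) and -0.59 ± 0.13 for Ugp2 (adjusted p = 0.00387). With library totals the calls of Gys1, Gyg and Ugp2 were lost (adjusted p = 0.109, 0.0979 and 0.180), that of Gbe1 remained, and Pygb was called higher (0.51, adjusted p = 0.00454). The median over all genes moved from -0.05 to 0.32 with that scaling. Stbd1, Ppp1r3b and Pygb had no called interaction with TMM (adjusted p = 0.54, 0.285 and 0.367).

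The libraries labelled 3D Cxcl5-/- were also set against those in 2D. Against 2D Cxcl5-/-, 3 of the 7 genes were higher and 1 was lower, where 28.7% of all genes were higher, 28.2% lower and 57.0% called in all. The count called is near that share, so nothing particular to the members is read from it. All genes together had a median of 0.11 in this comparison. The fitted log2 fold change was 1.53 ± 0.12 for Gys1, 0.71 ± 0.09 for Gbe1 and 2.70 ± 0.13 for Ppp1r3b. Their adjusted p by edgeR were 1.38e-07, 1.67e-05 and 2.68e-09. Relative to the median these 3 changes were 1.42, 0.60 and 2.59, which were not tested. Gyg was lower (log2 fold change -0.33 ± 0.09, adjusted p = 0.00685, or -0.44 relative to the median), the opposite of its direction in WT cells. This call was lost with library totals (adjusted p = 0.200), with no filter (0.101) and with at least 10 counts in every sample (0.0752). Ugp2 was below the range of 2D Cxcl5-/- in each 3D sample but was not called (adjusted p = 0.0596), and it was called when any 1 of 6 of the 12 libraries was left out. Stbd1, with 0 to 8 counts in 2D and 0 to 22 in 3D, was not called (log2 fold change 2.20 ± 1.04, adjusted p = 0.0849).

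**Figure D2:**
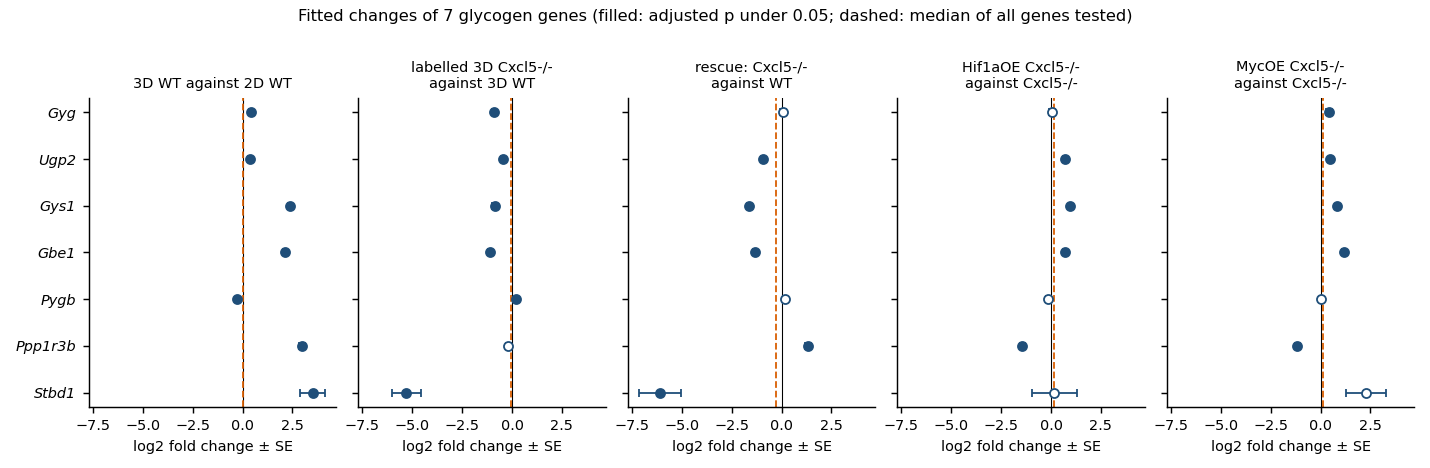
Fitted log2 fold change (x axis, ± SE) of 7 glycogen genes (y axis) in 5 comparisons; filled points passed an adjusted p of 0.05, open points did not, and the dashed line is the median of all genes tested. Gys1, Gbe1 and Ugp2 rise from 2D to 3D in WT, are lower in 3D samples labelled Cxcl5-/- of both experiments and higher again with either overexpressed gene, while Ppp1r3b is higher in Cxcl5-/- of the rescue experiment and lower with either overexpressed gene.

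The rescue experiment measured WT and Cxcl5-/- spheroids anew, in a table scaled on its own. Of 9 genes tested, 4 were lower and 1 higher in Cxcl5-/-, where 24.3% of all 28730 genes were lower, 17.6% higher and 41.9% called in all. The median of all genes was -0.30 here, which is the reference for what follows. Gys1 had 231 and 224 CPM in the 2 WT samples and 76.1 and 70.4 in the 2 Cxcl5-/- samples, 3.11-fold lower (log2 fold change -1.63 ± 0.08, adjusted p = 1.88e-07, or -1.34 relative to the median). Gbe1 had 303 and 305 CPM in WT and 123 and 123 in Cxcl5-/- (log2 fold change -1.31 ± 0.10, adjusted p = 1.76e-06). Ugp2 had 107 and 109.9 CPM and 60.0 and 54.8 (log2 fold change -0.92 ± 0.09, adjusted p = 1.29e-05). Relative to the median of all genes Gbe1 was at -1.02 and Ugp2 at -0.63, so the mRNAs of all 3 enzymes were lower by that measure as well.

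Stbd1 had the largest fitted change of the called members. It had 447 and 395 counts in WT and 13 and 0 in Cxcl5-/- (log2 fold change -6.08 ± 1.05, adjusted p = 0.000868). Without Cxcl5-/- replicate 1 the fitted value went to -11.9, the other sample having no count. Gyg, lower in the libraries labelled 3D Cxcl5-/- of the earlier experiment, was not called here, at 19.0 and 19.3 CPM in WT and 20.8 and 19.5 in Cxcl5-/- (adjusted p = 0.685). Pygb was at 53.3 and 57.3 CPM and 60.0 and 65.3 and was not called either (adjusted p = 0.188).

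Ppp1r3b was higher in Cxcl5-/-, at 32.1 and 30.8 CPM against 12 and 13.4 in WT (log2 fold change 1.31 ± 0.15, adjusted p = 5.33e-05). Relative to the median of all genes it was at 1.61. In the earlier experiment the log2 fold change was -0.20 ± 0.12 (adjusted p = 0.208, edgeR), so the 2 experiments did not give the same result. The log2 of Ppp1r3b over Gys1 counts within a sample was -2.75 ± 0.23 in 3D WT and -2.07 ± 0.11 with the knockout label. In the rescue experiment it was -4.17 ± 0.14 in WT and -1.22 ± 0.03 in Cxcl5-/- (SD). The difference between the experiments was not tested.

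Both overexpression lines had more mRNA of the synthase and the branching enzyme than the Cxcl5-/- cells they came from. Against Cxcl5-/-, Hif1aOE Cxcl5-/- had 3 of the 9 genes higher and 1 lower, where 20.5% of all genes were higher, 15.0% lower and 35.5% called in all. MycOE Cxcl5-/- had 4 higher and 1 lower, where 21.6% were higher, 18.0% lower and 39.6% called in all. Median changes over all genes were 0.16 and 0.11. Because these comparisons share the 2 Cxcl5-/- samples, their values stand side by side and are not counted as separate evidence.

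Gys1 had 143, 146 and 140.5 CPM in Hif1aOE Cxcl5-/- and 133, 125 and 136 in MycOE Cxcl5-/-. It was 1.95-fold above Cxcl5-/- with Hif1a (log2 fold change 0.97 ± 0.08, adjusted p = 3.89e-06) and 1.79-fold with Myc (log2 fold change 0.84 ± 0.08, adjusted p = 6.78e-06). Relative to the medians of all genes these were 0.81 and 0.73. Each of the 6 samples lay above both Cxcl5-/- samples and below both WT samples. Gbe1 had 196, 203 and 192 CPM with Hif1a and 251, 271 and 300.3 with Myc (log2 fold change 0.68 ± 0.09, adjusted p = 9.85e-05 and log2 fold change 1.16 ± 0.09, adjusted p = 1.97e-06). Relative to the medians they were 0.53 and 1.05. The 2 lines differed in Gbe1, which was higher with Myc in every sample (log2 fold change 0.48 ± 0.08, adjusted p = 0.0011), and Gys1 was not called between them (log2 fold change -0.13 ± 0.07, adjusted p = 0.235).

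Ugp2 had 94.8, 92.9 and 89.4 CPM with Hif1a and 80.4, 75.4 and 85.1 with Myc, above Cxcl5-/- in all 6 samples (log2 fold change 0.69 ± 0.08, adjusted p = 5.75e-05 and log2 fold change 0.48 ± 0.08, adjusted p = 0.000564). With library totals the call with Myc was lost (adjusted p = 0.271). Gyg rose with Myc, to 24.7, 30.6 and 25.9 CPM (log2 fold change 0.42 ± 0.13, adjusted p = 0.0245), and had 24.5, 19.2 and 19.1 with Hif1a. The difference between the lines was called (log2 fold change 0.37 ± 0.12, adjusted p = 0.0465) but was lost when any 1 of 8 of the 10 libraries was left out, with library totals, without the filter and with only the 2 groups fitted. The rise with Myc itself was lost with library totals (adjusted p = 0.686) and without Cxcl5-/- replicate 1 or 2 or MycOE Cxcl5-/- replicate 2 (0.0698, 0.148 and 0.0776). Between the lines 2 genes were called, Gbe1 and Gyg, both higher with Myc, where 9.54% of all genes were higher, 9.73% lower and 19.3% called in all. Ugp2 was not called (log2 fold change -0.20 ± 0.07, adjusted p = 0.0742), though it was called lower with Myc with library totals (0.0349), with at least 10 counts in every sample (0.0418) and with DESeq2 (0.0201).

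Ppp1r3b fell in both lines, to 12.1, 10.2 and 12.7 CPM with Hif1a and 13.2, 12.6 and 16.3 with Myc (log2 fold change -1.43 ± 0.14, adjusted p = 1.17e-05 and log2 fold change -1.16 ± 0.14, adjusted p = 3.69e-05). WT had 12 and 13.4 CPM, and neither line was called against it (adjusted p = 0.552 and 0.444). Stbd1 stayed low. It had 19, 5 and 0 counts with Hif1a and 31, 28 and 39 with Myc, against 447 and 395 in WT. Neither line was called against Cxcl5-/- (adjusted p = 0.957 and 0.0972), and the comparison of Myc with Cxcl5-/- was called with the replicate block (adjusted p = 0.0324) and without Cxcl5-/- replicate 1 (0.0198). Both lines were far below WT (log2 fold change -5.93 ± 0.87, adjusted p = 0.000752 with Hif1a and log2 fold change -3.82 ± 0.76, adjusted p = 0.00304 with Myc).

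Set against WT, 3 of the 9 genes were lower in Hif1aOE Cxcl5-/- and none was higher, where 10.3% of all genes were lower, 13.9% higher and 24.2% called in all. Besides Stbd1 these were Gys1 (log2 fold change -0.67 ± 0.07, adjusted p = 0.000138) and Gbe1 (log2 fold change -0.63 ± 0.08, adjusted p = 0.00046). In MycOE Cxcl5-/-, 3 were lower and 1 higher, where 14.7% were lower, 17.1% higher and 31.8% called in all, and the median of all genes was -0.17. Besides Stbd1, Gys1 (log2 fold change -0.79 ± 0.07, adjusted p = 1.88e-05) and Ugp2 (log2 fold change -0.44 ± 0.08, adjusted p = 0.00179) were lower and Gyg was higher (log2 fold change 0.50 ± 0.13, adjusted p = 0.0155), a call that was lost with DESeq2 size factors (0.0529), with library totals (0.312), with at least 10 counts in every sample (0.0528), and without WT replicate 1 or 2 or MycOE Cxcl5-/- replicate 2. Gbe1 with Myc was not called against WT (log2 fold change -0.15 ± 0.09, adjusted p = 0.199), but it was called lower with DESeq2 size factors (adjusted p = 0.0254) and with library totals (0.0122). The same held with the DESeq2 test (0.00103) and with at least 10 counts in every sample (0.0107). Ugp2 with Hif1a, at an adjusted p of 0.0527, was called lower with DESeq2 size factors (0.00577) and with library totals (0.0173). It was also called with the DESeq2 test (3.80e-06), with at least 10 counts in every sample (0.00252), and without MycOE Cxcl5-/- replicate 2 or 3.

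**Figure D3:**
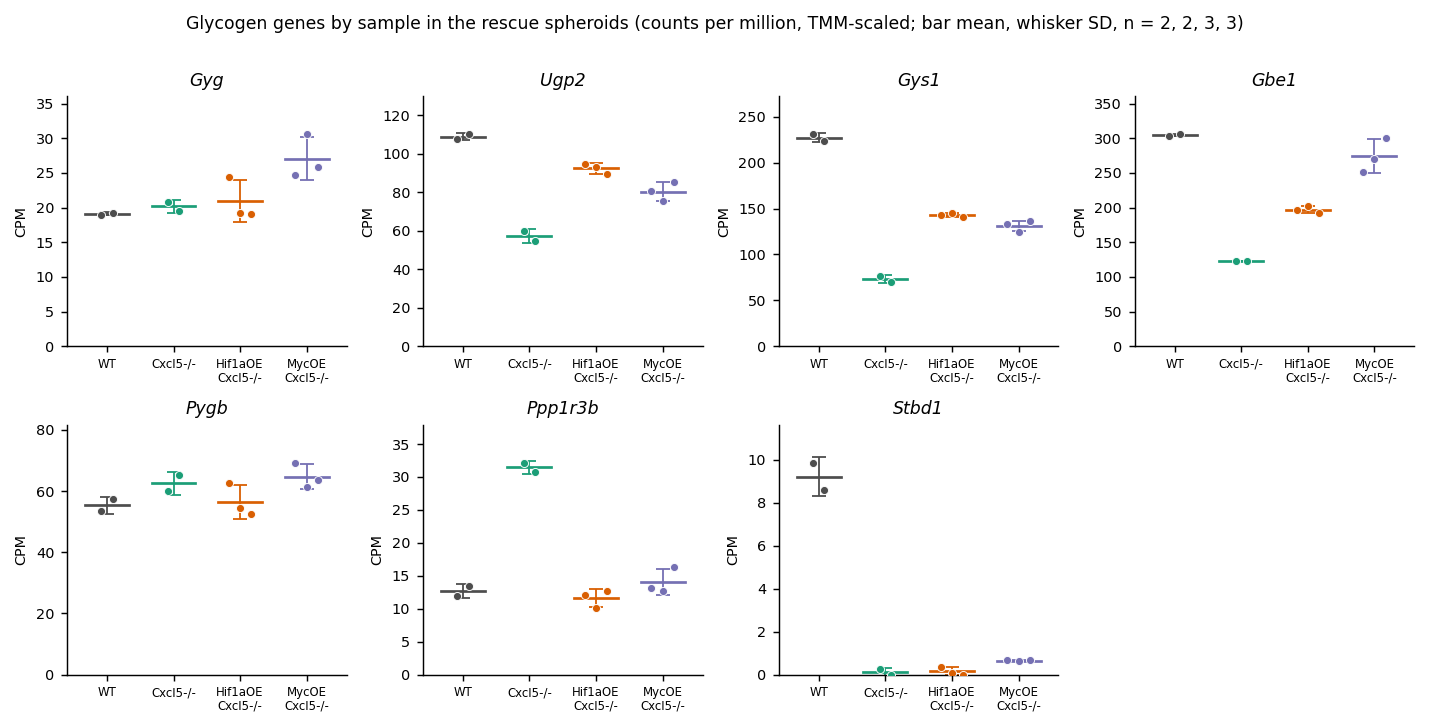
Level of 7 glycogen genes in each sample of the rescue experiment; the y axes are CPM from 0, points are samples, bars are means and whiskers are SD (n = 2 for WT and Cxcl5-/-, n = 3 for the overexpression lines). Gys1 and Gbe1 lie between Cxcl5-/- and WT in both overexpression lines, Ppp1r3b lies near the WT samples, and Stbd1 has at most 0.687 CPM in either line against 8.59 and 9.86 in WT.

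A ratio within a sample does not depend on how libraries are scaled. The counts of Gys1, synthase, over those of Pygb, the one phosphorylase with many reads, had a log2 of -0.92 ± 0.04 in 2D WT and -1.0 ± 0.02 in 2D Cxcl5-/- (SD, n = 3). In 3D WT it was 1.72 ± 0.05, and in the libraries labelled 3D Cxcl5-/- 0.63 ± 0.29, with replicate 1 the lowest at 0.30. In the rescue experiment it was 2.04 ± 0.10 in WT (n = 2), 0.23 ± 0.17 in Cxcl5-/- (n = 2), 1.35 ± 0.13 with Hif1a (n = 3) and 1.02 ± 0.08 with Myc (n = 3). No groups overlapped within either of these tables, but 2D WT and 2D Cxcl5-/- were close. The log2 of Gbe1 over Pygb was 0.15 ± 0.08 in 2D WT, 0.38 ± 0.12 in 2D Cxcl5-/-, 2.53 ± 0.08 in 3D WT and 1.20 ± 0.04 in the libraries labelled 3D Cxcl5-/-. These ratios were not tested.

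**Figure D4:**
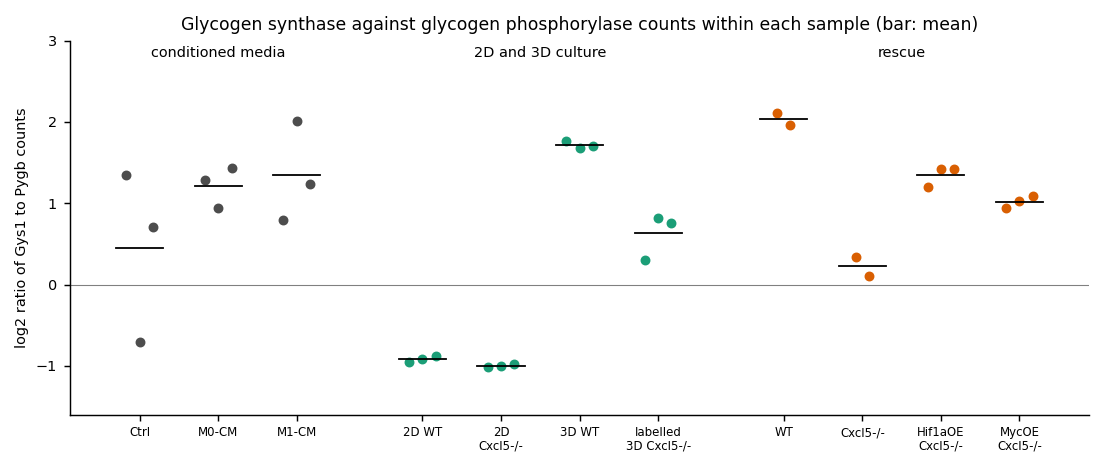
Log2 ratio of Gys1 to Pygb counts within each sample (y axis) by group (x axis); points are samples and bars are means. The ratio is below 0 in every 2D sample and in Ctrl replicate 2, and above 0 in all other samples.

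Conditioned medium moved no member past the threshold. A call in this table took an adjusted p under 0.05 together with a log2 change larger than 1 in size. Of the 7 genes tested, 0 were called for M1-CM against Ctrl (0.0156% of 19207 genes were), 0 for M1-CM against M0-CM (0.0156%) and 0 for M0-CM against Ctrl (0.0%). At an unadjusted p under 0.05 by edgeR the counts were 0, 0 and 1, the last being Gbe1. DESeq2 also called 0 of the members in each. The spread in Ctrl was wide. Gbe1 was at 394, 129 and 323 CPM in Ctrl, at 523, 446 and 526 in M0-CM and at 327, 292 and 409 in M1-CM. For M0-CM against Ctrl its test gave log2 fold change 0.82 ± 0.34, adjusted p = 1, and M1-CM lay below M0-CM in every sample (log2 fold change -0.54 ± 0.34, adjusted p = 0.989). Gys1 was at 227, 75.6 and 189 CPM in Ctrl, 262, 236 and 274 in M0-CM and 192, 285 and 265 in M1-CM. Ppp1r3b was at 26.2, 6.80 and 27.4 CPM in Ctrl, 30.2, 28.4 and 42.5 in M0-CM and 22.5, 29.5 and 32.4 in M1-CM.

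In each of these 3 genes Ctrl replicate 2 was the low sample. The same library had the highest Pygb of its group, at 124 CPM. Ugp2 was at 101, 90.2 and 96.4 CPM in Ctrl, 105, 113 and 113 in M0-CM and 96.4, 78.6 and 102 in M1-CM. Stbd1 had 42, 0 and 19 counts in Ctrl, 25, 18 and 32 in M0-CM and 0, 0 and 7 in M1-CM, and Pygl had counts in Ctrl replicate 1 alone. The WT spheroids of this experiment thus had 0 to 42 counts of Stbd1, where the 3D WT samples of the culture experiment had 352 to 424 and those labelled 3D Cxcl5-/- had 0 to 22. The tables were scaled separately, and the difference between the WT spheroids of the experiments was not tested. By the study's methods the culture medium differed as well, with less serum in Ctrl than in the complete medium of the 3D WT samples. Without Ctrl replicate 2 the log2 fold change of Gbe1 for M0-CM against Ctrl was 0.46, and the count called was still 0. Cxcl5 itself, which the study followed, was at 101 ± 20.4 CPM in Ctrl and 682 ± 32.4 in M1-CM (log2 fold change 2.76 ± 0.17, adjusted p = 0.000474). In these spheroids the fibroblast markers summed to 246 to 336 CPM, and the tables were scaled separately.

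**Figure D5:**
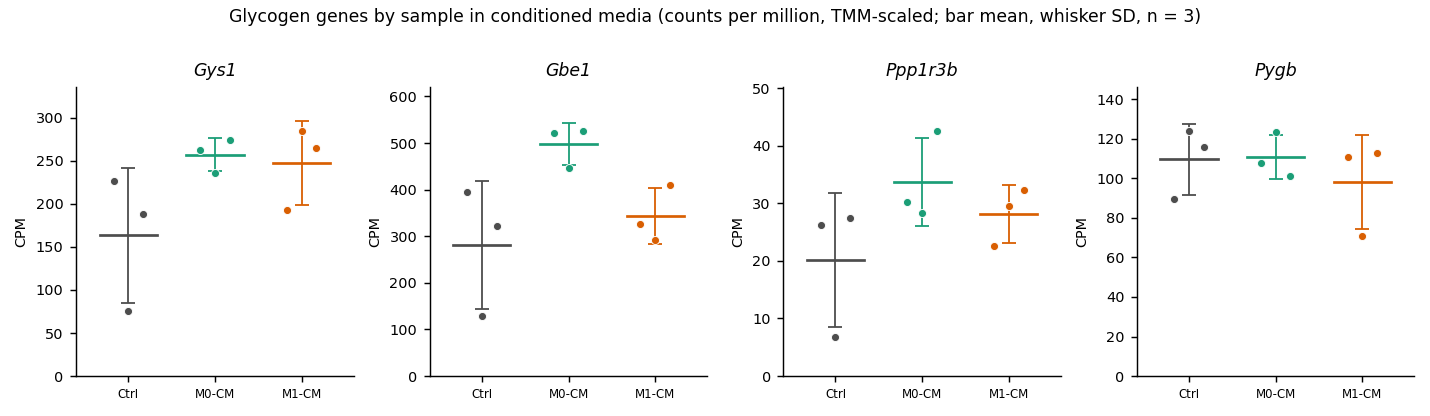
Level of 4 glycogen genes in each spheroid sample by medium (x axis); the y axes are CPM from 0, points are samples, bars are means and whiskers are SD (n = 3). Ctrl replicate 2, the middle point of Ctrl, is the lowest sample of all 9 for Gys1, Gbe1 and Ppp1r3b.

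Of 25 other genes of the pathway, 20 to 23 were tested. Their counts stand against the shares of all genes called in each comparison, given above, and nothing particular to the list is read from them. In 3D WT against 2D WT 9 of 21 were higher and 2 lower, where 22.2% and 22.0% of all genes were, with a median of 0.55. The largest were Epm2a, the laforin phosphatase that acts on glycogen (log2 fold change 4.53 ± 0.29, adjusted p = 4.18e-08), Pgm1, a phosphoglucomutase that links glucose 1-phosphate to glycolysis (log2 fold change 1.91 ± 0.10, adjusted p = 6.45e-09), Slc37a4, the glucose 6-phosphate transporter (log2 fold change 1.17 ± 0.13, adjusted p = 4.92e-06), and Gaa, the lysosomal glucosidase (log2 fold change 0.98 ± 0.13, adjusted p = 3.06e-05). In the libraries labelled 3D Cxcl5-/- against 3D WT, 4 of 21 were higher and 7 lower, where 19.7% and 25.3% of all genes were. Slc37a4 (-1.08 ± 0.13) and Pgm1 (-0.98 ± 0.10) fell, and Gaa (0.95 ± 0.13) and Phkb, a regulatory subunit of phosphorylase kinase (0.91 ± 0.08), rose. The median of the list was 0.05. In 2D, Phkb alone of the list was called (0.42 ± 0.08). For the interaction 4 were higher and 5 lower. Against 2D Cxcl5-/-, the libraries labelled 3D Cxcl5-/- had 11 higher and 4 lower, led by Epm2a (3.81 ± 0.28), Nhlrc1, the partner of laforin (2.60 ± 0.63), Gaa (1.92 ± 0.13) and Gsk3b, a kinase that inhibits synthase (1.53 ± 0.17). Epm2a was higher in 3D in both genotypes, with 12 to 31 counts in 2D WT and 24 to 54 in 2D Cxcl5-/-. Nhlrc1 had 3 to 6 counts in 2D Cxcl5-/- and 14 to 36 in the libraries labelled 3D Cxcl5-/-. The folds of both genes thus rested on few reads on the 2D side.

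In the rescue experiment Cxcl5-/- had 7 of 23 higher and 9 lower than WT, where 17.6% and 24.3% of all genes were, with a median of -0.23. Pgm1 fell (log2 fold change -1.63 ± 0.10, adjusted p = 5.66e-07) and Phkb rose (log2 fold change 1.60 ± 0.09, adjusted p = 4.08e-07). The other 2 of the 4 largest, Ppp1r3a and Gys2, the muscle phosphatase subunit and the liver synthase, had at most 60 counts in WT and 0 in Cxcl5-/-. In this comparison their calls rest on low counts in the 2 WT libraries that stood apart by the number of genes with a count. That of Gys2 was lost with library totals (adjusted p = 0.0533) and with DESeq2 (0.0542). Ppp1r3a was also called higher than in Cxcl5-/- in both overexpression lines. With each sample left out in turn, its log2 fold change there was 6.43 to 6.85 with Hif1a and 5.51 to 6.27 with Myc. Pgm1 was higher than in Cxcl5-/- with Hif1a (log2 fold change 1.22 ± 0.09, adjusted p = 2.69e-06) and with Myc (log2 fold change 1.49 ± 0.09, adjusted p = 5.75e-07), and so was Slc37a4 (1.15 ± 0.13 and 1.40 ± 0.13). Gsk3b was at 290.1 ± 10.6 CPM in Cxcl5-/-, 126 ± 20.9 with Hif1a (-1.20 ± 0.12) and 129 ± 10.1 with Myc. Counts over the list were 5 higher and 5 lower with Hif1a and 7 higher and 7 lower with Myc. Between the lines 2 were higher with Myc and 2 lower. Of these 4, Nhlrc1 had the largest fitted change, with 43, 54 and 62 counts with Hif1a and 3, 0 and 3 with Myc (log2 fold change -4.53 ± 0.81, adjusted p = 0.00215). Against WT, 5 were higher and 4 lower with Hif1a, and 4 higher and 6 lower with Myc. In the media 0 of 20 were called in any comparison.

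Across the 12 samples of 2D and 3D culture, the pattern of each member was compared with 14443 genes of at least 50 mean counts by the root mean square difference of centred log2 CPM. The closest to Gbe1 was Pgm1 at 0.135, then Samd9l at 0.148. The closest to Gys1 were Bnip3l at 0.127 and Arrb1 at 0.130. For Ppp1r3b they were Bsg and Sp100 at 0.207 and 0.222, on a pattern whose own root mean square was 1.42. Stbd1 had no close match, Bcam being nearest at 0.896. Ugp2 (Pank3 and Ap5m1), Gyg (Dazap2 and Cdk17) and Pygb (Dcaf7 and Arpc1a) varied little, with own root mean squares of 0.189, 0.339 and 0.138. The 12 points share 4 groups and 1 table, and no p is given.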

How the data were processed

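Total RNA of 31 samples was sequenced by the authors with a stranded total RNA kit in read pairs. Per the study's methods and the submitters' processing notes, reads were aligned with HISAT2 to mm10 (GRCm38) and assembled with StringTie, versions not given in the sources used here. The values are raw counts per gene as the authors deposited them in 3 tables, 1 for each experiment, with 0 columns of unknown sample. Total counts ran from 41542533 to 78498230, so low counts limit the precision for Stbd1, Pygl and Ppp1r3c. Intervals and limits of a count of 0 cover counting error only.

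Each table was fitted apart with edgeR 4.0.16 in R 4.3.3 (TMM, filterByExpr with the groups given, 1 quasi-likelihood fit over every group of the table, Benjamini-Hochberg over all genes tested), and every adjusted p comes from that test unless another is named. Fold changes are ± SE. A call is an adjusted p under 0.05, in the media table also a log2 change larger than 1 in size. Alternatives were DESeq2 1.42.0 size factors and Wald test, library totals, other filters, only the groups compared, a replicate block, another fold limit and leaving out each sample. The scripts were tested on simulated data.

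The members and lists were chosen with earlier results of these data known. All 9 members are named. Of 25 other pathway genes, those named were called and among the 4 largest changes of a comparison. Not every such change is given, and Phkg1, Pygm and Phka2, which also met this rule, have no values above. For each member the 2 genes most like it are named. Cxcl5, Hif1a and Myc check the labels. The counts cannot separate a transgene from the endogenous gene. Samples were grouped by their labels, and the study states in general that it used biological replicates, but not how the replicates of these libraries were grown, so p-values measure the spread between these samples, which may be technical. For the rescue experiment the labels give running line names, and Panc02 is taken from the study's methods.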

Additional observations from a re-analysis of the deposited data

Results flagged for a closer look

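For 4 genes the effect of the knockout differed between 3D and 2D culture by the interaction term of the edgeR fit. The genotype effect in 3D minus that in 2D was -1.41 for Gbe1, -0.85 for Gys1, -0.74 for Gyg and -0.59 for Ugp2 on the log2 scale. With library totals the calls of Gys1, Gyg and Ugp2 were lost and that of Gbe1 held. Cxcl5 mRNA in the libraries labelled 3D Cxcl5-/- went against the label, and its part in these differences was not tested.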

How the results depend on the processing

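Over 109 single gene results and 1921 values under alternatives, 1822 kept direction and side of the threshold, 59 lost the call, 39 gained it and 1 turned, which was Ppp1r3b in 3D Cxcl5-/- against 3D WT (0.19 with library totals). With a log2 change above 1 required as well, the members called were 4 in 3D WT against 2D WT, 2 in 3D Cxcl5-/- against 3D WT, 2 in 3D against 2D Cxcl5-/-, 1 for the interaction, 1 for Hif1aOE and 2 for MycOE against Cxcl5-/-, 0 between the lines, and 1 each for Hif1aOE and MycOE against WT. With library totals, 2 were called for the interaction and 3 for MycOE against Cxcl5-/-. In 2D, 2 were called with the replicate block, with DESeq2 and with only the groups compared. Between the lines, 1 was called without the filter and 1 with only the groups compared. The cause was not tested. Leaving out each sample gave 0 to 2 calls in 2D and 1 to 3 between the lines. Same-numbered samples did not deviate together on average (mean correlation 0.025, 0.037 and 0.004 in culture, media and rescue), so the replicate number is not taken as a pairing. In the media single pairs ran from -0.236 to 0.359, with 3 of 9 above 0.1. In the rescue experiment the check says little for WT and Cxcl5-/-, whose 2 samples deviate by mirror values. The block also gave the call of Stbd1 for MycOE against Cxcl5-/- (2.73) and between the lines (2.37).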
